A study of Mus musculus and synthetic RNA with 74 samples.

Results

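The genes described here are 10 members of the amino acid stress response around the transcription factor ATF4. They were taken by gene symbol from the gene tables of single mouse embryos: the factors Atf4, Ddit3 and Atf3, the feedback and effector genes Trib3, Chac1 and Ddit4, the synthesis enzymes Asns, Psat1 and Phgdh, and the transporter Slc7a11. Of 21890 genes listed at either stage these 10 are a small set, and 9 of them had a row at both stages. The study asked what loss of METTL16, an enzyme that writes N6-methyladenosine on RNA, does to the embryo. Used here are the 70 single embryos with a genotype label, sequenced for polyadenylated RNA, 31 at embryonic day 2.5 (E2.5, morula) and 39 at E3.5 (blastocyst).

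All embryos came from crosses of Mettl16 heterozygous parents, with superovulated females. The parents belonged to a single line with stop codons inserted into exon 3 of Mettl16, made in B6D2F1/J embryos and bred to C57BL/6JRj mice. At E2.5 there were 14 HET, 12 KO and 5 WT embryos. At E3.5 the embryos were 9 HET, 12 KO and 18 WT. The values used here are the authors' mean normalized counts over all embryos of a stage, with the 3 genotypes pooled. They carry no SD, no value of a single embryo and no count total per embryo, so no comparison of genotypes was made and no difference between stages was tested. The WT share was 16.1% at E2.5 and 46.2% at E3.5, and the tables of the stages were normalized separately. Stage, genotype mix and normalization therefore cannot be told apart in any stage ratio given here.

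When amino acids run short or proteins misfold, kinases phosphorylate the initiation factor eIF2, general protein synthesis drops, and the Atf4 mRNA is translated more, because short reading frames in its leader then no longer hold ribosomes back. ATF4 pairs with C/EBP factors on composite DNA elements and drives genes for amino acid uptake and synthesis, and also Trib3, Chac1 and Ddit3, which end or redirect the response. PHGDH and PSAT1 catalyse consecutive steps of serine synthesis, the pathway that feeds the folate cycle and thereby the methionine cycle in which S-adenosylmethionine is made.

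The composite element was searched for as TGATGNAA on both strands of the RefSeq promoters, which run from 250 bases before to 50 after each start. It was found in 5 of the 10 members, against 4.51% of all 27025 genes with a promoter. The 5 members were Atf3, Trib3, Chac1, Asns and Slc7a11, the last of which held 2 matches. The members were chosen as genes of the ATF4 response, so their share is a description and no test. The stretches with a match are shown, and binding of ATF4 to them was not measured in the data used here. Each stretch is read on the strand of the gene in GRCm38.p6, with the match in capitals. A match on the opposite strand has the form TTNCATCA.
Atf3, chr1:191183425-191183454, minus strand: ccttctcgcacTTGCATCAccaagtccgcg
Trib3, chr2:152344028-152344057, minus strand: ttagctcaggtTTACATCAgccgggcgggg
Chac1, chr2:119351038-119351067, plus strand: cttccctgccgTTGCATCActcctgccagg
Asns, chr6:7693214-7693243, minus strand: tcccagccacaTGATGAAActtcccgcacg
Slc7a11, upstream match, chr3:50443661-50443690, minus strand: tctcatgtggcTGATGCAAacctggagaat
Slc7a11, downstream match, chr3:50443642-50443671, minus strand: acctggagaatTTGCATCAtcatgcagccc

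The match began 110 bases before the start of Atf3, 193 before that of Chac1, and 66 and 47 before that of Slc7a11. For Asns it began 23 bases before the start that the promoter is set on and 50 before the start in the authors' exon table, the only member with a match for which these starts differ. In Trib3 it began 14 bases after the start. The stricter form TGATGCAA was held by 3 members, Atf3, Chac1 and Slc7a11, against 1.03% of all genes. Atf4, Ddit3, Ddit4, Psat1 and Phgdh had no TGATGNAA in this window.

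The leaders of the mRNAs, from the annotated start to the coding sequence in GENCODE vM21, also differed among the members. For each gene 1 transcript was read, the longest of those linked to the authors' RefSeq transcripts. The shorter Atf4 transcript, in which 283 bases of this leader are an intron, was not read. Atf4 had a leader of 594 bases with 3 upstream AUGs, of which 1 opened a reading frame that ran into the coding sequence and 2 opened frames that closed before it. This is the arrangement for which Atf4 translation is known. Psat1 had 1 upstream AUG in a leader of 136 bases, and its frame too ran past the coding start. Ddit3 and Asns each had 2 upstream AUGs, and Atf3 and Slc7a11 each had 1, all in frames that closed within the leader. Trib3, Chac1, Ddit4 and Phgdh had 0. Upstream AUGs were thus present in 6 of 10 members, beside 51.4% of 18740 genes, and a frame overlapping the coding start in 2 of 10, beside 16.9%.

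Because METTL16 methylates the sequence UACAGAGAA in structured RNA, the same nonamer was looked for on the transcribed strand of each member. It occurred in exons of 2 members, Psat1 and Slc7a11, and in introns of Slc7a11 and Ddit3. Among 24467 genes, 3.29% held it in an exon and 35.7% anywhere between their ends. Mat2a, the methyl donor synthetase whose mRNA is the known METTL16 substrate, held it 5 times in exons. The exonic sites of the members are shown with 11 bases before and 10 after, the spacing of the RNA library that the study methylated in vitro, with the nonamer in capitals. The site of Psat1 lies in coding sequence and that of Slc7a11 in the 3′ untranslated part of the last exon.
Psat1, chr19:15919463-15919492, minus strand: attattggcaaTACAGAGAAtcttgtgagg
Slc7a11, chr3:50368645-50368674, minus strand: cttaacaccttTACAGAGAAtacatatggc

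The other 7 members held no nonamer at all between their ends. A match to the letters is no measure of methylation, and m6A in embryos was not measured in the data used here.

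The labels of the stages were read against lineage markers. Of 6 trophectoderm markers, 5 were at least 2-fold higher at E3.5, with Krt8 at 41.1-fold, and Tfap2c was lower. Epiblast and primitive endoderm markers were mixed, with 2 of 6 and 2 of 4 higher and 1 of each lower, Pou5f1 by 2.95-fold and Gata4 by 5.78-fold. Cumulus cell markers Amh, Fshr, Has2 and Foxl2 were below 1 mean normalized count or not listed at both stages, and the liver gene Alb was not listed. The oviduct gene Ovgp1 had 320 mean normalized counts at E2.5 and 25.3 at E3.5, and Pax8 had 28.1 and 4.13, so both oviduct markers were at least 2-fold lower at E3.5. Of the blood markers, Hba-a1 had 49.6 and 12.0, while Ptprc and Hbb-bs stayed under 2. The part of such RNA in the members' values was not tested.

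Levels are compared between genes as mean normalized counts per kilobase of exon, because a longer mRNA yields more reads. By this measure the members spanned a wide range at both stages. At E2.5 the order was Psat1 with 16379 per kilobase, Phgdh with 10630, Atf4 with 4352, Trib3 with 194, Ddit4 with 123, Asns with 102, Ddit3 with 86.4, Chac1 with 5.16 and Slc7a11 with 0.920. The serine enzymes and Atf4 itself therefore stood far above the rest. At E3.5 the order was Psat1 with 4249, Atf4 with 3710, Phgdh with 3041, Asns with 957, Ddit3 with 477, Trib3 with 36.0, Ddit4 with 9.23, Chac1 with 4.03, Atf3 with 2.68 and Slc7a11 with 1.26. Without a spread between embryos, it cannot be said which neighbours in these orders differ. The closest neighbours were Ddit4, Asns and Ddit3 at E2.5, and Psat1, Atf4 and Phgdh at E3.5.

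**Figure D1:**
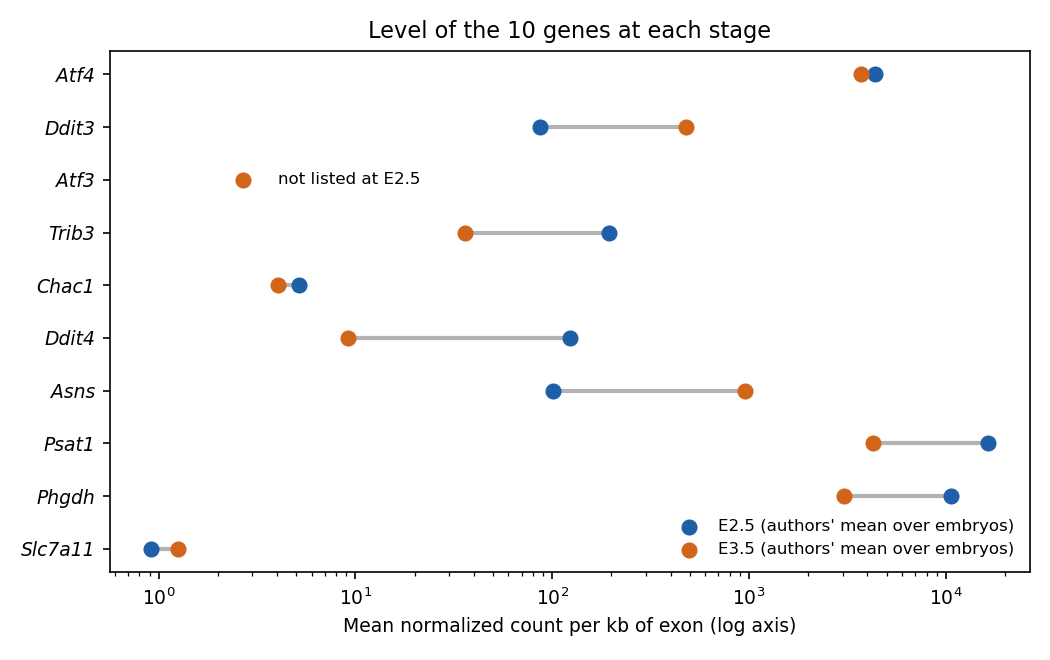
Mean normalized count per kilobase of exon (log axis) of each member at E2.5 (blue) and E3.5 (orange), each point being the authors' mean over all embryos of the stage, with no error available. Psat1, Phgdh and Atf4 lie between 3041 and 16379 at both stages, Chac1, Atf3 and Slc7a11 below 6, and Asns and Ddit3 are the members whose orange point is clearly to the right.

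Among the factors, Atf4 (chr15:80255184-80257545, plus strand) had 7524 mean normalized counts at E2.5 and 6414 at E3.5, above 97.3% and 96.7% of the genes listed. The mRNA of the central factor was thus abundant at both stages. Ddit3 (chr10:127290793-127296288, plus strand) encodes CHOP, a factor linked to cell death under lasting stress. It had 75.3 counts at E2.5 and 416 at E3.5, above 57.2% and 69.8% of the genes listed. Among genes with a mean of at least 10 it was above 31.1% and 51.8%. Its last exon overlaps 68 bases of Mars on the other strand, and the libraries do not keep strand. Atf3 (chr1:191170296-191183333, minus strand), an early stress-induced repressor, was not listed at E2.5, where its 4 exons were also given as 0, and had 5.30 counts at E3.5.

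Among the feedback and effector genes, Trib3 (chr2:152337425-152344060, minus strand), a pseudokinase that binds ATF4 and restrains it, had 399 counts at E2.5 and 73.7 at E3.5. Ddit4 (chr10:59949675-59951770, minus strand) encodes REDD1, an inhibitor of the growth kinase complex mTORC1, and had 207 and 15.5. Of the genes listed they were above 73.9% and 67.0% at E2.5, and above 52.9% and 40.4% at E3.5. Among genes with a mean of at least 10, Trib3 was above 58.1% at E2.5 and 24.8% at E3.5, and Ddit4 above 46.9% and 5.00%. Chac1 (chr2:119351242-119354326, plus strand), an enzyme that degrades glutathione, was low throughout with 8.09 and 6.32 counts.

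Among the synthesis enzymes, Psat1 (chr19:15905123-15925059, minus strand) had 40801 counts at E2.5, which placed it at rank 73 of 20330 genes, and 10585 at E3.5, at rank 420 of 21199. Phgdh (chr3:98313171-98339969, minus strand) had 19888 and 5689, at ranks 198 and 810. Both were thus among the most abundant mRNAs of the morula, in counts that are not divided by length. Psph, which completes serine synthesis and was singled out after its values were seen, had 1167 and 594. Asns (chr6:7675171-7693182, minus strand), which makes asparagine and is a classic ATF4 target, had 196 and 1845, at ranks 6828 and 2498. Slc7a11 (chr3:50364936-50443613, minus strand), the cystine importer, had 8.49 and 11.6 counts over an exon length of 9227 bases.

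For the stage ratio each table was scaled to a sum of 1000000. Genes listed at both stages with a scaled mean of at least 1 in either were kept, which left 12507 genes and 7 of the members. Atf3 has no ratio, and Chac1 and Slc7a11 were under the filter. The members did not shift together: 2 of the 7 were at least 2-fold higher at E3.5, where 35.1% of all genes were, and 4 of the 7 were at least 2-fold lower, where 18.9% of all genes were. The median log2 ratio of the 7 was -2.01, beside 0.41 over all genes. In bulk RNA of a whole embryo, fewer cells that express a gene and less RNA per cell cannot be told apart.

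The 2 members on the higher side were Asns and Ddit3. Asns went from 8.31 to 68.0 scaled counts, a log2 ratio of 3.03 or 8.18-fold, above 91.7% of genes. Ddit3 went from 3.19 to 15.3, a log2 ratio of 2.26 or 4.79-fold, above 85.7% of genes.

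The lower side held the serine enzymes together with Trib3 and Ddit4. Psat1 went from 1732 to 390 scaled counts, a log2 ratio of -2.15, and Phgdh from 844 to 210, a log2 ratio of -2.01, so that these consecutive enzymes had close ratios, 4.44-fold and 4.03-fold lower. Trib3 went from 16.9 to 2.72, a log2 ratio of -2.64 or 6.23-fold lower. Ddit4 had the lowest ratio of the 7, from 8.78 to 0.573, a log2 ratio of -3.94 or 15.3-fold lower. It passed the filter only through E2.5, so it had to be lower at E3.5, and with 1 scaled count added to both means its log2 ratio was -2.64. All 4 lay in the lower tail, with between 2.68% and 8.93% of genes under them. Atf4 stood between, from 319 to 236 scaled counts, a log2 ratio of -0.43 or 1.35-fold lower, under the 2-fold limit. Asns and Psat1, both textbook ATF4 targets, thus stood on opposite sides. The place of Atf4 depends on the exons read: over its exons other than the last it was 2.66-fold lower, past the limit.

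**Figure D2:**
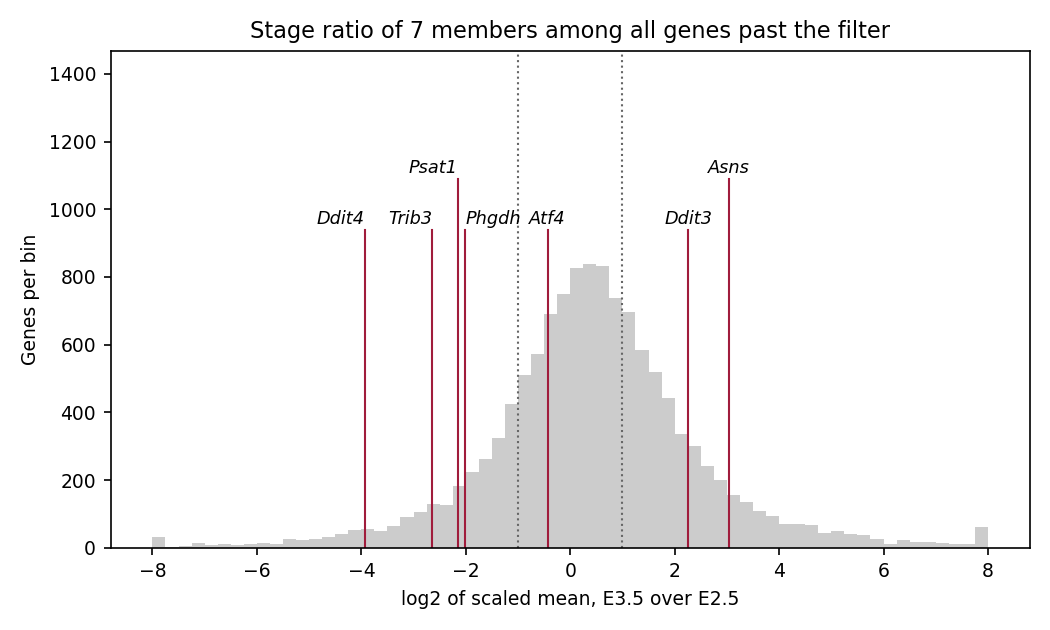
Histogram of the log2 ratio of scaled means, E3.5 over E2.5, for 12507 genes in bins of 0.25 (grey, end bins holding values beyond 8 either way), with the 7 members past the filter as red lines and the 2-fold limits dotted. Ddit4, Trib3, Psat1 and Phgdh lie in the left tail, Ddit3 and Asns in the right tail, and Atf4 at -0.43 near the middle.

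The table of single exons showed that the ratio depends on where in a gene it is read. Its signal was scaled to an equal sum over exons at the 2 stages. Over 8560 genes of at least 3 exons with a signal of at least 10, the last exon had a log2 ratio higher than that of the other exons summed in 91.8% of genes, with a median difference of 1.15 and quartiles of 0.57 and 1.73. The median gene had 22.7% of its exon signal in the last exon at E2.5 and 38.0% at E3.5. This shift towards the last exon went with stage, as the members' values did, and its cause was not tested.

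Atf4 is the member whose side of the 2-fold limit turned on the exons read. Its last exon, of 912 bases, had a signal of 5467 at E2.5 and 4882 at E3.5, a scaled ratio of 1.06-fold. Exon 3, of 315 bases, had 3125 and 1055, a scaled ratio of 2.49-fold lower, and the other exons together were 2.66-fold lower. Its last exon thus held 55.2% of the exon signal at E2.5 and 77.7% at E3.5, a shift larger than in 65.7% of genes. Read from the other exons, Atf4 passed the 2-fold limit on the lower side, and read from the last exon it did not differ by 2-fold.

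The serine enzymes were lower at E3.5 by either reading. Psat1 was 7.73-fold lower over its other exons and 2.63-fold lower over the last, and Phgdh 5.20-fold and 3.25-fold. In Phgdh the scaled ratio moved along the gene, from 10.5-fold lower in exon 2 to 3.09-fold lower in exon 11. Asns was higher by either reading, 6.69-fold over the other exons and 17.97-fold over the last, with 2.24-fold in exon 1. Ddit3 ran against the general shift, with 5.29-fold over the other exons and 4.07-fold over the last, a difference of -0.38 that was lower than in all but 3.70% of genes. The last exon of Ddit3 is the one that overlaps Mars on the other strand. It had a signal of 227 at E2.5 and 776 at E3.5, beside separately estimated gene means of 75.3 and 416. The part of Mars reads in that exon was not tested. The alternative transcripts of Ddit3 differ by the small exon 2.

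Of the 5 members that could be read both ways, 2 were at least 2-fold higher and 3 lower over the other exons, where 20.1% and 28.6% of genes were. Over the last exon alone 2 were higher and 2 lower, where 47.3% and 8.48% were. Among all genes, Psat1 lay above 4.37% and 5.47% of genes over other and last exons, Asns above 96.9% and 97.5%, Atf4 above 19.7% and 26.3%, and Phgdh above 7.59% and 3.90%. The place of Ddit3 moved most, from 95.3% to 78.5%, although its fold moved least. The latter value is from the exon that overlaps Mars.

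Trib3 and Ddit4 were too low outside the last exon at E3.5 for that comparison. Their exon signals nonetheless pointed one way. In Trib3, exon 1 had 36.7 at E2.5 and 1.17 at E3.5, and the last exon had 297 and 58.1. Ddit4 had 64.6 and 1.53 in exon 2, and 163 and 11.7 in the last. Every exon of both genes was lower at E3.5, by 4.30-fold to 26.3-fold after scaling in Trib3 and by 11.7-fold to 37.2-fold in Ddit4. Ddit4 passed the filter only through E2.5, so its direction as a gene was fixed, and its exons add no separate evidence of it.

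**Figure D3:**
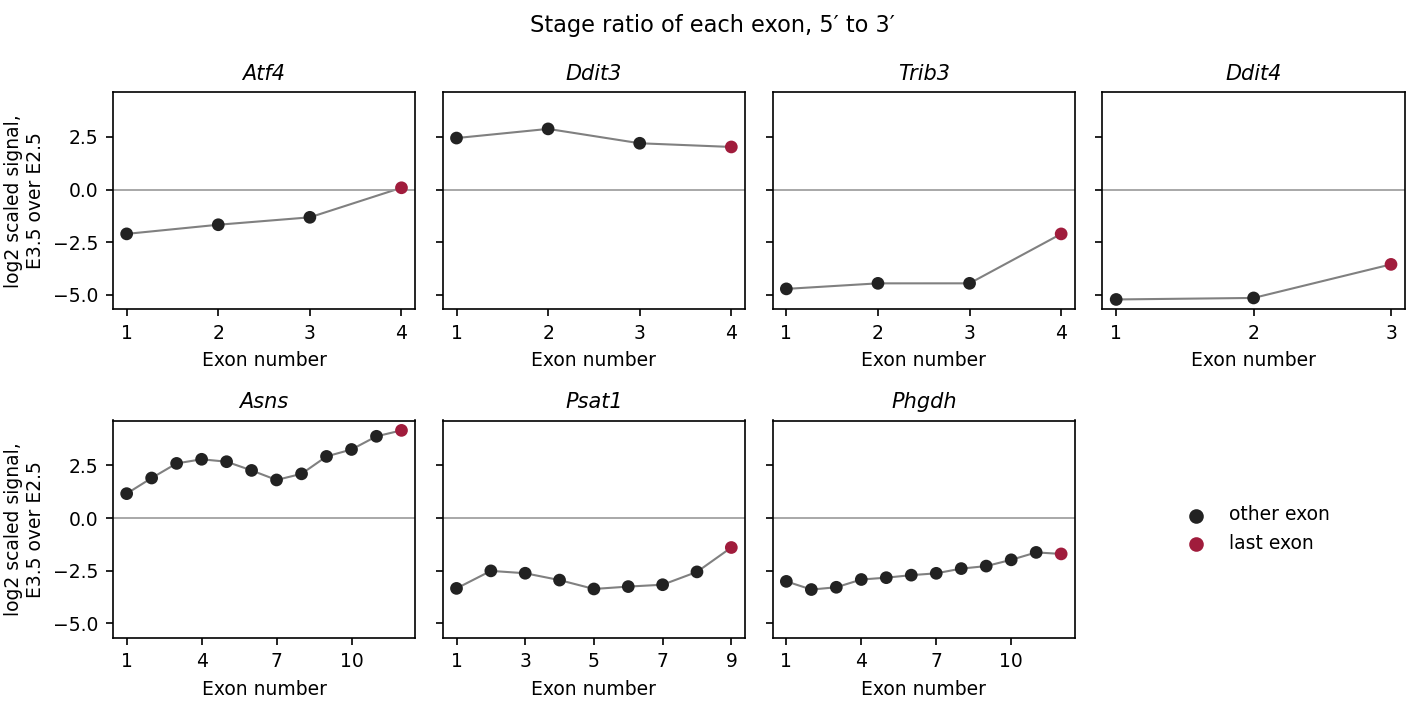
log2 ratio of scaled exon signal, E3.5 over E2.5, against exon number from 5′ to 3′ for the 7 members past the filter, with the last exon in red and a grey line at 0. In all of these genes but Ddit3 the last exon lies above the first, in Atf4 at 0.09 against values of -1.32 or lower in its other exons, and no other gene has exons on both sides of 0.

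Reads in introns can come from sequence that has not been spliced, and their origin was not tested here. The summed intron mean per kilobase was taken as a percent of the summed exon mean per kilobase. Over all genes the median was 1.01% at E2.5 and 1.87% at E3.5. The synthesis enzymes lay far below it: Psat1 had 0.0610% and 0.0703%, Phgdh 0.0498% and 0.145%, and Asns 0.0892% and 0.224%, each above no more than 8.63% of genes. Atf4 had 0.526% and 0.959%, counting only introns that hold no exon of its other transcript. Trib3 had 0.693% at E2.5 and 3.14% at E3.5, the latter resting on a summed intron mean of 4.59. Several of these values depend on how introns are combined. With the median intron in place of the sum, Atf4 had 0.963% and 2.11%, and Phgdh 0.0201% and 0.0459%. Trib3 at E3.5 then had 1.72%. No such value was computed over all genes. Ddit3 had the highest value of the members at E2.5, 2.41%, with 2.95% at E3.5. Introns of Asns carried 3.38 summed counts at E2.5 and 55.5 at E3.5, so intron and exon signal were both higher at E3.5, and those of Psat1 carried 317 and 60.5, so both were lower.

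Other genes of the pathway were read in 6 lists of 45 genes, of which 40 passed the filter, 16 at least 2-fold higher at E3.5 and 10 at least 2-fold lower, with a median log2 ratio of 0.53. These are shares near those of all genes, 35.1% and 18.9%, and nothing particular to the lists is read from their counts. A gene under 1 scaled count at either stage passed the filter only through the other stage, so its direction was fixed. The counts include such genes. Among genes whose fold is given below, Slc6a9 thus had to be lower, and Slc1a4, Aldh18a1 and Vldlr had to be higher. The oviduct markers and Hba-a1 above likewise had to be lower. Sox2, counted above among the higher epiblast markers, had to be higher. Highest and lowest level below means the mean of the scaled counts per kilobase over both stages, and within a single stage the order can differ. Of 7 genes for kinases and eIF2 control, 2 were higher and 0 lower. Eif2ak4, the GCN2 kinase that senses uncharged tRNA, had the largest ratio, 4.84-fold higher, Eif2s1, a subunit of eIF2, was the highest in level per kilobase, and Eif2ak2 was the lowest. Of 8 partner and related factors, 2 were higher and 3 lower. Nfe2l2, the oxidative stress factor NRF2, was 10.6-fold higher, Nupr1 was the highest per kilobase, with 36.3 at E2.5 and 5.78 at E3.5, where Nfe2l2 had 13.7, and Jun was the lowest.

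Of 8 amino acid transporters, 4 were higher and 2 lower. Slc6a9, a glycine transporter, was 19.4-fold lower, while Slc1a4, a neutral amino acid transporter, was 13.1-fold higher and had the lowest mean level, although Slc6a9 was lower at E3.5, with 0.0801 against 0.885 per kilobase. Slc3a2, the heavy chain that SLC7A11 needs at the cell surface, was the highest, at 166 scaled counts per kilobase at E2.5 and 73.6 at E3.5, and was 2.25-fold lower. The partner of the cystine importer was thus abundant where Slc7a11 itself was low. Of 8 synthesis and mitochondrial folate genes, 3 were higher and 2 lower. Cth, which makes cysteine from cystathionine, was the highest and 7.72-fold lower, beside Psat1 and Phgdh. Aldh18a1, for proline synthesis, was 33.2-fold higher, and Aldh1l2 was the lowest.

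Of 7 secreted and stress targets only Sesn2 and Vldlr passed the filter. Sesn2, an inhibitor of mTORC1 signalling like the product of Ddit4, was the highest and was 2.32-fold lower, Vldlr was 4.74-fold higher, and Fgf21 was the lowest, with no row at E3.5. Of 7 genes of endoplasmic reticulum stress outside ATF4, 4 were higher and 2 lower, and Ern1 had the lowest mean level. The chaperone Hspa5 had the highest, with 97.6 and 293 scaled counts per kilobase, and Hsp90b1, 24.4-fold higher, had 14.6 and 356. The members' summed scaled mean went from 2934 to 923, most of it Psat1 and Phgdh.

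**Figure D4:**
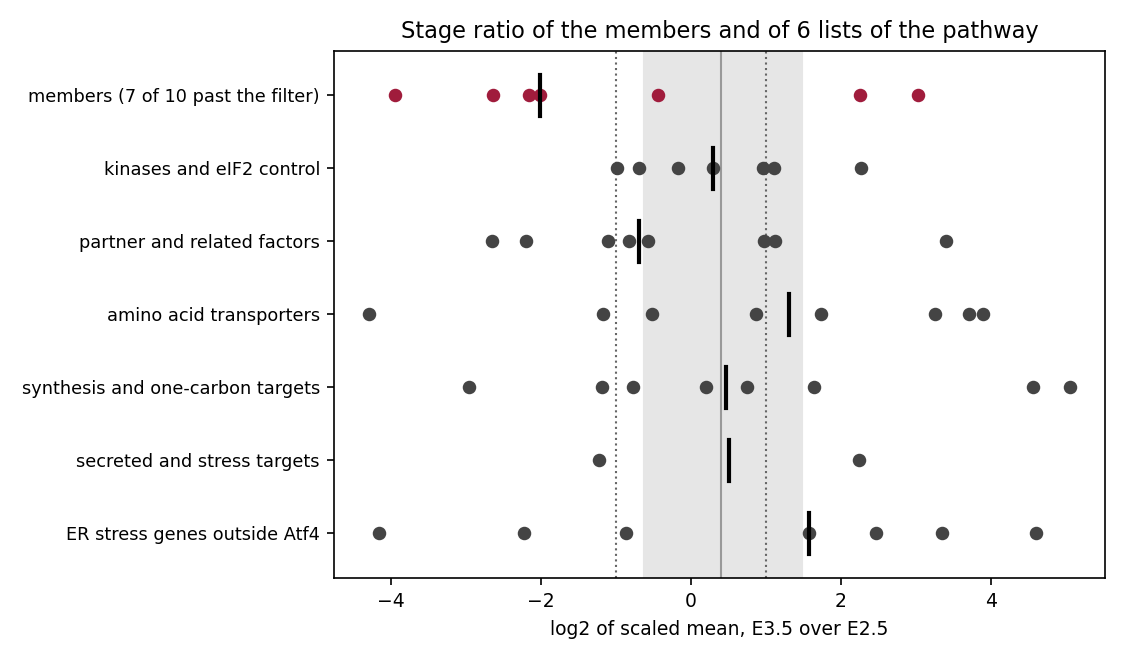
log2 ratio of scaled means, E3.5 over E2.5, of the members (red) and of the genes of 6 pathway lists that passed the filter (dark points), with each list's median as a black bar, the quartiles and median of all 12507 genes in grey and the 2-fold limits dotted. The members' median of -2.01 lies left of all list medians, and 5 of the 6 lists have genes beyond both 2-fold limits.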

How the data were processed

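Smart-seq2 libraries, which keep no strand, were made from polyadenylated RNA of single embryos. The authors ran Salmon 0.7.2 against RefSeq transcripts (mm10) for gene estimates, and STAR with featureCounts for each exon and intron, introns being shortened by 10 nt at each end. They normalized each stage by itself with DESeq2 1.18.1. The signal used from the deposited tables is the mean over all embryos of a stage, without a value per embryo. The deposited columns of fold changes and adjusted p between genotypes are the authors' own comparisons and were not used. The table of synthetic RNAs was not used, since it names no gene.

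Because 0 columns of single embryos were found, the planned edgeR fit between genotypes, its DESeq2 alternative and the fits leaving out embryos were not run. In their place each table was scaled to a sum of 1000000, with a filter of 1 scaled count in either stage and a limit of 2-fold, as a description with no test. The tables used give no count total per embryo, and sequencing depth was not used here, so no interval is given. The ratio step was tested on simulated data.

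Levels per kilobase used the union of listed exons. Sequences came from RefSeq promoters (GRCm38.p6), all 11 of the members' promoters being equal to the genome, and leaders from GENCODE vM21. In the genome 98.9% of the listed introns ran from GT to AG. The members and the pathway lists were chosen with earlier results of these data known. Named genes were all 10 members and, of each list, the highest and lowest mean level per kilobase and the largest ratio. Python 3.11.15, numpy 2.4.6, pandas 2.3.3 and matplotlib 3.10.9 were used.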

Additional observations from a re-analysis of the deposited data

How the results depend on the processing

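The values are means without spread, so their precision is unknown, and small means such as those of Chac1, Slc7a11 and Atf3 are the least certain. No paired analysis was possible because no value of a single embryo was used and no result came from a test.

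The counts of 2 members higher and 4 lower at E3.5 were 2 and 4 without scaling, with scaling to the median ratio, with a pseudocount of 1, with summed exon means, with a limit of 1.5-fold and without a filter, and 2 and 3 with a scaled mean of at least 10. With that filter of 10, Asns and Ddit3 passed only through E3.5 and Trib3 only through E2.5. Their directions were then fixed, so this setting is no check on them. Leaving out the scaling moved the median log2 ratio of all genes by 0.23, and scaling to the median ratio moved it by -0.20. Among genes past the limit 65.0% were higher, 71.7% without scaling and 58.2% with the median ratio. In alternatives chosen after seeing the data, 2 members were lower in the last exon alone, beside 8.48% of genes, and over the other exons 28.6% of genes were lower and 20.1% higher. These read only the 5 members with enough signal. The cause of the difference between last and other exons was not tested. Across all of these settings the log2 ratio of Atf4 lay between -1.41 and 0.09, that of Asns between 2.74 and 4.17, that of Psat1 between -2.95 and -1.40, and that of Ddit4 between -4.12 and -2.64. No log2 ratio past the limit changed its direction. With TGATGCAA, 30% of members and 1.03% of all genes held the element. Among genes with a mean of at least 10, 4 level percentiles moved by more than 1.5-fold and 11 did not. Read from the median intron, 7 intron percentages moved by more than 1.5-fold and 8 did not. Not run were the genotype fits that had been planned, with their replicate block and with embryos left out in turn.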
